A study of Homo sapiens with 62 samples.

Results

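The melanoma line A2058 carries gains of 1q, 7p and 8q, and the libraries described here compare it with 3 clones that no longer hold the 7p gain. Members were taken by their labels: 6 libraries labelled A2058 7p-loss (clones 1 to 3, 2 libraries each) and 4 labelled A2058 WT, 10 of the 62 libraries in the series. Each clone grew from a single cell and was made with ReDACT-CO, a CRISPR-based way of removing the extra copy of a gained chromosome arm, and no A2058 library used here is labelled as treated without loss of an arm. RNA was taken 24 h after plating, and the labels name no drug or other agent. Each clone is thus 1 line that grew from 1 cell, set against a parent that the labels do not describe as cloned. The 8q-loss and 1q-loss libraries of A2058 (4 libraries from 2 clones each, made in the same way against the other gained arms) are used only as points of reference. The labels do not say whether libraries of a clone came from separate cultures, so p-values measure the spread between these libraries, which may be technical.

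Poly-A RNA was sequenced and reads were counted per gene; the 10 tables held between 19595543 and 28622197 counts each. Levels are given as CPM, a gene's counts per 1000000 counts of its library after scaling by TMM, a normalization that sets most genes equal between libraries. Of 58735 genes, 15305 had enough counts to be tested. A change is given as a log2 fold change against WT with its standard error (SE), and a gene was called where its adjusted p from edgeR's quasi-likelihood test was below 0.05. Calls by DESeq2, a second tool for counts, are named as such. Clone 1 stood apart from the others across the genome: 5796 genes (37.9% of those tested, 18.3% higher and 19.6% lower) were called between clone 1 and WT. Clone 2 gave 802 (5.24%, 1.89% higher and 3.35% lower) and clone 3 gave 939 (6.14%, 2.21% higher and 3.92% lower). Clone 1 gave 3391 calls without its replicate 1, clone 2 gave 222 and 375 without its replicates 1 and 2 and 429 without WT replicate 2, and clone 3 gave 416 and 501 without its own replicates. Among the 3 clones 5296 genes (34.6%) differed, and 275 did when clone 1 was left out. Results are therefore given by clone.

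The short arm of chromosome 7 encodes single subunits of several multi-protein machines, the small GTPase RAC1, beta-actin, the HOXA cluster of body-plan regulators and EGFR, a growth factor receptor. In a melanocyte-derived tumour the transcription factors SOX10 and MITF drive pigment genes such as MLANA, TYR and PMEL, and melanoma cells are known to move between this pigmented state and a dedifferentiated one marked by genes such as SOX9, NGFR and WNT5A. Cancer-testis genes, many of them of the MAGE family on the X chromosome, are silent in most adult tissues and often active in melanoma, and their promoters are known targets of DNA methylation.

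Promoters are printed first for genes whose loss of RNA was shared by all 3 clones. MAGEC2 and MAGEA4 are 2 cancer-testis genes that fell in every clone, and they are shown because their windows hold the same 8-base string close to the start. PIGW, on 17q, was the gene with the smallest p-value of the whole comparison, and its window is shown because it starts next to MYO19, which is read the other way and also fell. Each is the RefSeq window (GRCh38.p14, 250 bases before the start and 50 after it), written 5′ to 3′ on the strand of the gene. Capitals mark CGGATGTG in the MAGE windows, and in the PIGW window the 118 bases between the MYO19 and PIGW starts.
MAGEC2, chrX:142205241-142205540, minus strand: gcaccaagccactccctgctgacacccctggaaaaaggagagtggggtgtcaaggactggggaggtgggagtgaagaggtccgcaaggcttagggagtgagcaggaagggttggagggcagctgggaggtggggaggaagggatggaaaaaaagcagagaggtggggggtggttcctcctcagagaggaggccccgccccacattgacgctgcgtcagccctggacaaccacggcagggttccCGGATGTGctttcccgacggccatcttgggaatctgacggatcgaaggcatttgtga
MAGEA4, chrX:151912224-151912523, plus strand: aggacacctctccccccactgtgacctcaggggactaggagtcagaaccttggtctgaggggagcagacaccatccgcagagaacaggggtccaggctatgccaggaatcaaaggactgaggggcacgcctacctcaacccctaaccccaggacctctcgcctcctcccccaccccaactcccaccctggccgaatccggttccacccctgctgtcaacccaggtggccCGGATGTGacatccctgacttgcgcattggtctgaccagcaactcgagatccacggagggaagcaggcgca
PIGW, chr17:36534737-36535036, plus strand: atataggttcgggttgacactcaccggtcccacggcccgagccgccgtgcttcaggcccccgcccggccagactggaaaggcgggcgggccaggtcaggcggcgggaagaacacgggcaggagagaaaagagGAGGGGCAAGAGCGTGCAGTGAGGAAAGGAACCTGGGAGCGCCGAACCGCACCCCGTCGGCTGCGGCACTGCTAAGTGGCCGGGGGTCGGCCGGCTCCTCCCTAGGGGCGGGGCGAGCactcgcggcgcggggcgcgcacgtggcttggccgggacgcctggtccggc
The string CGGATGTG, searched on both strands and noticed after the genes were known, was in 234 of 35116 promoter windows (0.666%). In the cancer-testis list, 20 of 24 genes matched the table by symbol, and 20 of their 32 windows (62.5%) held it, including all 5 of MAGEA4. MAGEC1, which was higher in clones 2 and 3, holds it too. The MAGE windows held 10 CG pairs each and the PIGW window 35, against a median of 14 over all windows.

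The 252 tested genes of 7p lay below WT as a body in each clone. Relative to the other autosomal arms, the median 7p gene stood at -0.46 and -0.44 (log2) in the 2 libraries of clone 1, at -0.51 and -0.55 in those of clone 2 and at -0.52 and -0.56 in those of clone 3, whereas WT libraries lay between -0.010 and 0.0055. No loss library overlapped a WT library, and the mean of the loss libraries was 70.4% of WT. The exact two-sided permutation test over libraries gave p = 0.00952, the smallest that 6 against 4 libraries allow, but the 6 libraries stand for 3 clones. In bulk RNA, fewer cells without the gain and a smaller change in each cell cannot be told apart. On 7q the same quantity lay between 0.0065 and 0.063 in the loss libraries.

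Among single genes, 228 of 252 were lower on average than in WT, with a median log2 fold change of -0.51 and quartiles of -0.65 and -0.29. The median of all 15305 tested genes was 0.015. Values of -0.75 to -0.4 were found for 125 genes of 7p (49.6%) and for 5.06% of genes elsewhere. In 115 genes of 7p (45.6%) every loss library was below every WT library in CPM; this was so for 2.69% of all tested genes, and 2.21% of all tested genes had every loss library above WT. The fit of all 6 loss libraries against WT called 70 genes of 7p, all lower, where 0.908% of all tested genes were called in either direction (0.804% lower). Without any 1 WT library that count fell to between 38 and 44, without clone 3 it was 40 and without clone 1 it was 142. With WT replicates 1 and 2 only it was 7 and with WT replicates 3 and 4 only 18, and DESeq2 gave 108. By clone, 123, 119 and 124 genes of 7p were called lower and 11, 1 and 0 higher, and 70 were called lower in all 3 clones (32 to 45 in fits without 1 library of clone 2 or 3). Medians were alike across levels: the least, middle and most expressed 84 genes had medians of -0.49, -0.52 and -0.54, although 2, 28 and 40 of them were called. With the 2 libraries of a clone summed, so that 3 clones faced 4 WT libraries, 23 genes of 7p were called.

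**Figure D1:**
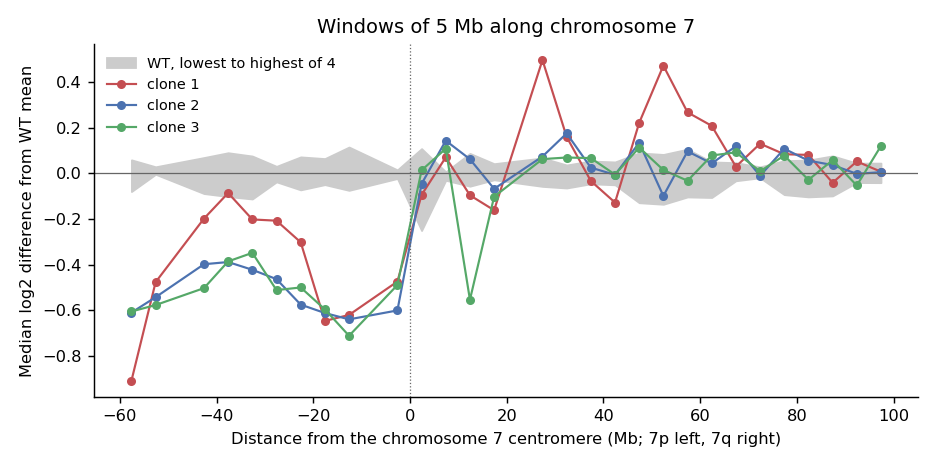
Median log2 difference from the WT mean in windows of 5 Mb along chromosome 7 (y axis), against distance from the centromere in Mb (x axis); coloured lines are the means of the 2 libraries of a clone and the grey band spans the 4 WT libraries. Clones 2 and 3 lie below the WT band in every window of 7p, clone 1 lies inside it in the window at -0.086 and below it in the others, and clone 3 has a window of 7q at -0.55.

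The depth of the fall was not the same along the arm, and clone 1 differed from the others. In windows of 5 Mb, clones 2 and 3 stayed between -0.35 and -0.71. Clone 1 reached -0.91 in the outermost window, where clones 2 and 3 stood at -0.61 and -0.60, and -0.086 in the window from 20 to 25 Mb, inside the WT range of -0.10 to 0.091. When 7p was divided at 10 and 40 Mb, edges that were chosen from these windows, the 115 genes of the middle stood at -0.15 and -0.19 in the libraries of clone 1, at -0.41 and -0.49 in clone 2 and at -0.40 and -0.51 in clone 3. The 75 outer genes had means of -0.64, -0.58 and -0.58 in clones 1 to 3, and the 62 inner genes -0.59, -0.62 and -0.59. The share of genes that differed among clones was 46.7% in the outer block, 39.1% in the middle and 27.4% in the inner block, beside 34.6% of all tested genes. Of the 11 genes of 7p called higher in clone 1, 10 lay in this middle stretch, beside 18.3% of all tested genes called higher in that clone. They included ETV1, HDAC9, ITGB8 and CDCA7L.

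RAC1 and the most abundant called genes of 7p were lower in every loss library than in every WT library. RAC1 (chromosome 7, 6374523 to 6403977, GRCh38), a GTPase that controls the actin cytoskeleton, had 588, 562, 548 and 538 CPM in WT and a lowest, median and highest of 353, 376 and 406 CPM in the loss libraries. The groups did not overlap (log2 fold change -0.57, SE 0.059, adjusted p = 0.00092). PPIA (44796680 to 44824564), the peptidyl-prolyl isomerase cyclophilin A, went from 1860, 1897, 2246 and 2132 CPM to 1129, 1216 and 1316 CPM. The change was -0.74 (SE 0.074, adjusted p = 0.00092), again without overlap. ACTB (5527147 to 5563784), which encodes beta-actin, is often used as an unchanging reference gene. It had 9402, 9694, 9696 and 9856 CPM in WT against 7245, 7732 and 8222 CPM in the loss clones, a difference of -0.32 on the log2 scale (SE 0.061, adjusted p = 0.0384). Clone 2 was not called (adjusted p = 0.0727), and the group call was lost in 10 of 13 fits that left out a library or a clone, including each WT library in turn (adjusted p 0.0706 to 0.13).

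Among 25 tested genes of a list of cancer-associated 7p genes, 9 were called, all lower, and the median was -0.41. Of all tested genes 0.804% were called lower, and of 7p genes 70 of 252. Besides RAC1 and ACTB these were MAD1L1, RALA, EIF2AK1, PMS2, CYCS, TBRG4 and CBX3. MAD1L1, a protein of the spindle checkpoint, had 99.9, 91.2, 97.3 and 109 CPM in WT and 54.4, 57.6 and 67.9 CPM in the loss clones (log2 fold change -0.75, SE 0.079, adjusted p = 0.00096). RALA, a RAS-like GTPase, changed by -0.71 (SE 0.074, adjusted p = 0.00092) and EIF2AK1, a kinase of the integrated stress response, by -0.56 (SE 0.076, adjusted p = 0.00511). PMS2 changed by -0.52 (SE 0.073, adjusted p = 0.00578). TBRG4, a mitochondrial RNA-binding protein, differed among the clones (adjusted p = 0.000752), at -0.91, -0.57 and -0.38. Its group call was lost without any 1 WT library, without either library of clone 2 or without clone 2 (adjusted p 0.0677 to 0.123). For CBX3, a heterochromatin protein, the call was lost in 10 of 13 such fits (0.0575 to 0.15), and for CYCS, cytochrome c, without clone 3 (0.0527). The list was drawn up with the arm in mind, so its direction adds nothing to that of 7p.

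The other genes of the list were not called by edgeR in the 6-library fit, and some overlapped WT. DESeq2 called 10, adding NUDT1 (-0.69, edgeR adjusted p = 0.0516), which degrades oxidized nucleotides. By clone, 11, 11 and 14 of the 25 genes were called lower, beside 123, 119 and 124 of the 252 genes of 7p and 19.6%, 3.35% and 3.92% of all tested genes, and 2, 0 and 0 were called higher. EGFR was at 0 counts in every WT library and at 0 to 2 in the loss libraries, so it was not tested. The RNA-binding protein gene IGF2BP3 had 91.3, 108, 93.9 and 83.9 CPM in WT and 92.1, 107 and 117 CPM in the loss clones, and the groups overlapped (log2 fold change 0.16, SE 0.095, adjusted p = 0.51). ETV1, an ETS transcription factor, stood at 87.9 and 69.3 CPM in clone 1, above the 49.0 to 51.4 CPM of WT, and at 44.2 to 50.4 CPM in clones 2 and 3. It was called higher in clone 1 and differed among clones (adjusted p = 0.000461). GPNMB, a pigment-cell glycoprotein under MITF control, ranged from 240 to 937 CPM in the loss clones and from 630 to 951 in WT, and was not called (-0.68, SE 0.315, adjusted p = 0.394). Of 9 tested HOXA genes, 0 were called in the 6-library fit by edgeR or by DESeq2 (2 at an unadjusted p below 0.05, as were 13% of all tested genes), with a list median of -0.29.

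At the extremes of 7p, LFNG, a Notch-modifying glycosyltransferase, had 13.6, 12.01, 17.8 and 12.5 CPM in WT and 3.62, 5.10 and 6.79 CPM in the loss clones. That fall of -1.45 (SE 0.205, adjusted p = 0.00617) was present in each clone at -1.54, -1.13 and -1.76. FAM20C, a secretory-pathway kinase, had a value of -1.41 (SE 0.293, adjusted p = 0.0579) and ZNF853 -1.15 (SE 0.293, adjusted p = 0.121). Neither was called by edgeR, and both were called by DESeq2 and by edgeR without clone 1. At the other end, HDAC9, a histone deacetylase, stood at 40.6 and 30.8 CPM in clone 1 and 9.12 to 15.7 in clones 2 and 3, with WT at 11.2 to 15.8. CDCA7L was the exception in that all 6 loss libraries, at 16.6 to 26.6 CPM, exceeded the WT range of 13.1 to 14.9. It was called higher in clone 1 alone (0.89, adjusted p = 7.73e-05), and the 6-library fit gave 0.52 (SE 0.16, adjusted p = 0.204). HOXA4 ranged from 1.92 to 10.9 CPM over the loss libraries and overlapped WT. Without clone 1 the sign of ETV1 and HDAC9 turned, to -0.12 and -0.19.

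Many 7p genes encode 1 subunit of a complex whose other parts lie elsewhere, which allows the subunit to be read beside its partners. For 9 such complexes, the 7p subunit had a log2 fold change between -0.69 and -0.47, below the median of its partners in all 9, while partner medians lay between -0.19 and 0.11. In the 6-library fit 7 of the 9 7p subunits were called lower, beside 70 of 252 genes of 7p. Of 66 partners 0 were called by edgeR or by DESeq2, which is near the 0.908% of all tested genes called by edgeR. At an unadjusted p below 0.05 there were 7 partners, all lower, where 5.82% of all tested genes were lower at that level. Of these 7, 6 are subunits of cytochrome c oxidase and 1 is of eIF3. In clones 2 and 3, too, 0 of the 66 partners were called by edgeR, beside 5.24% and 6.14% of all tested genes. At an unadjusted p below 0.05 there were 9 and 6, beside 20.2% and 19.1% of all tested genes. In clone 1, 28 of 66 partners were called, 24 of them lower, beside the 37.9% of all tested genes called in that clone (19.6% lower).

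CCT6A (56051630 to 56063989), a subunit of the CCT chaperonin that folds actin and tubulin, had 838, 816, 795 and 832 CPM in WT and 500, 543 and 554 CPM in the loss clones. It fell by 0.62 (SE 0.057, adjusted p = 0.000669) with no overlap, at -0.70, -0.59 and -0.58 in clones 1 to 3. The median of its 7 partners was -0.28 in clone 1, 0.058 in clone 2 and 0.061 in clone 3. EIF3B, a scaffold of the translation initiation factor eIF3, fell by 0.60 (SE 0.067, adjusted p = 0.00169) from 628 to 692 CPM in WT to 402 to 476 CPM, and its 12 partners had a median of -0.10. POLD2, a subunit of DNA polymerase delta, fell by 0.62 (SE 0.065, adjusted p = 0.00092), and RPA3, of the single-strand DNA-binding replication protein A, fell by 0.68 (SE 0.091, adjusted p = 0.00507). LSM5, AIMP2 and SEC61G were called at -0.55, -0.47 and -0.63. These 3 calls were lost in 2, 3 and 8 of 13 fits that left out a library or a clone (highest adjusted p 0.0684, 0.065 and 0.106), among them the fits without clone 3. PSMA2 of the proteasome (-0.69, adjusted p = 0.0925) and NDUFA4 of cytochrome c oxidase (-0.54, adjusted p = 0.126) were not called by edgeR, although all loss libraries lay below WT. Both were called by DESeq2 and by edgeR without clone 1. CCT6A, SEC61G, PSMA2, RPA3, EIF3B and AIMP2 overlap other annotated genes. Reads of an overlap cannot be assigned because the strand setting of the counting is not given in the sources used here.

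**Figure D2:**
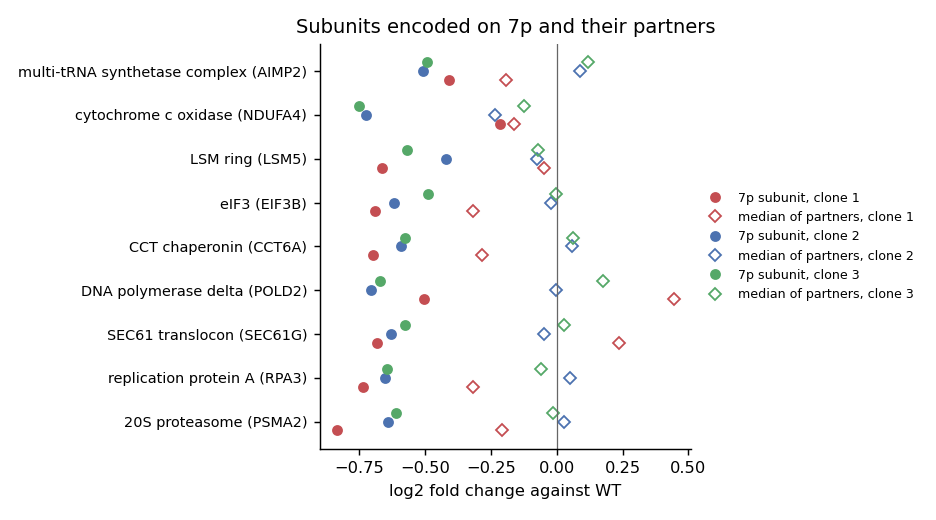
Log2 fold change against WT (x axis) of the subunit encoded on 7p (filled circles) and the median of its partners encoded elsewhere (open diamonds) for 9 complexes (y axis), by clone. By clone the 7p subunits lie between -0.83 (PSMA2, clone 1) and -0.21 (NDUFA4, clone 1), and the partner medians lie to their right. NDUFA4 in clone 1 is close to its partner median of -0.16.

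Outside 7p, 83 genes were called in all 3 clones in the same direction, 20 higher and 63 lower. All 3 comparisons use the same WT libraries, so part of this agreement is built in, and the overlap was not tested. Together with the 70 on 7p they make 153 of 15305 (1% of tested genes, 0.131% higher and 0.869% lower). Another 128 genes were called in all 3 clones but not in 1 direction, and in 110 of these clone 1 moved against clones 2 and 3. The 83 genes were unevenly spread, with 30 on 17q alone, 29 of them lower. The other 53 (19 higher, 34 lower) were scattered, with at most 5 on any other arm. Leaving out clone 2 replicate 1 gave 85 shared genes in place of 153 (53 outside 7p), and leaving out clone 3 replicate 1 gave 98 (58 outside 7p).

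The 17q genes lay in 2 stretches. The first ran from WSB1 to NUFIP2 (chromosome 17, 27294076 to 29294118) and the second from ZNHIT3 to ARHGAP23 (36486629 to 38512392). Their edges were set after the values were seen, so they are described without a test. In the first, the median of 34 tested protein-coding genes was -1.24 in clone 2, -1.26 in clone 3 and -0.33 in clone 1. In the second, that of 18 genes was -1.30, -1.21 and -0.44. Between them, 44 genes from TAOK1 to TAF15 had medians of -0.075 (clone 2), -0.077 (clone 3) and 0.15 (clone 1), and 25 genes beyond, from EPOP to PSMD3, -0.0073, 0.0013 and -0.38. All 34 and all 18 were below 0 in the 6-library fit, and 17 and 10 were called lower in all 3 clones. Thus 27 of the 30 shared 17q genes sat in these stretches.

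PIGW (chromosome 17, 36535020 to 36539310), an acyltransferase of GPI-anchor synthesis whose window is printed above, had 60.01, 56.5, 51.7 and 52.6 CPM in WT. The loss libraries ran from 24.0 through a median of 24.3 to 29.3 CPM, all below WT (log2 fold change -1.12, SE 0.0802, adjusted p = 0.000425). MYO19, a mitochondrial myosin that starts 118 bases away on the opposite strand, had 169 to 209 CPM in WT and 69.8 to 111 CPM in the loss clones (-1.10, SE 0.132, adjusted p = 0.00239). The 2 genes overlap, so their reads may be mixed. MRM1, a mitochondrial rRNA methyltransferase, changed by -1.26 (SE 0.113, adjusted p = 0.000669), at -1.10, -1.38 and -1.33. GGNBP2, between MYO19 and MRM1, was not lower in clone 1, where it had 86.1 and 82.7 CPM against 76.2 to 80.6 in WT, and had 41.4 to 46.2 CPM in clones 2 and 3. AATF, an inhibitor of apoptosis, stood at 96.5 and 96.9 CPM in clone 1, 34.3 to 37.9 CPM in clones 2 and 3 and 111 to 121 CPM in WT. Within the second stretch clone 1 thus shared the fall of some genes and not of their neighbours. These 5 genes of 17q were chosen after their values were seen.

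**Figure D3:**
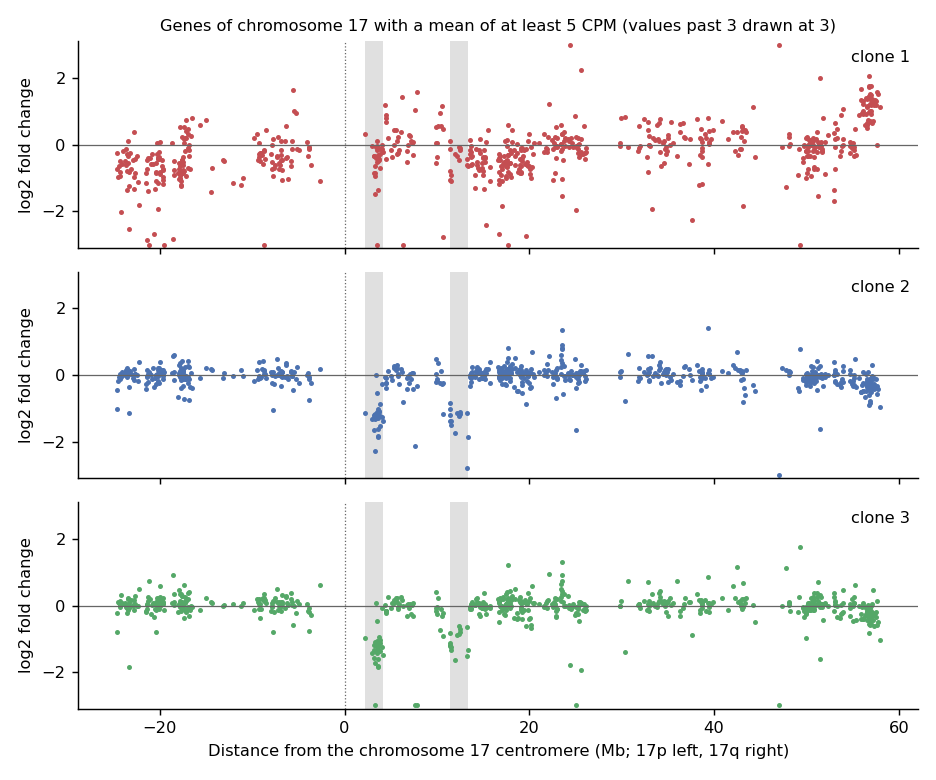
Log2 fold change against WT (y axis, values past 3 drawn at 3) of chromosome 17 genes with a mean of at least 5 CPM, against distance from the centromere in Mb (x axis), 1 panel per clone; grey bands are the 2 stretches of 17q. In clones 2 and 3 the points in the bands drop to medians of -1.21 to -1.30 with the genes around them near 0. Clone 1 is lower over 17p and over part of 17q beyond the second band, and higher at the end of 17q.

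Clone 1 carried a different pattern over the rest of chromosome 17. Its 17p genes (273 tested) stood at -0.55 and -0.51 in its 2 libraries, where those of clones 2 and 3 lay between 0.0056 and 0.059. In windows of 2 Mb from 38 to 46 Mb on 17q its medians were -0.50 to -0.57. Those of clones 2 and 3 were -0.054 to 0.11 there. In both windows that overlap the 2 stretches clone 1 stood at -0.33, a smaller fall than in these windows. In the last 2 windows of 17q its medians were 0.94 and 1.22, and those of clones 2 and 3 -0.26 to -0.36. Over the genome, 94 of 687 windows of 2 Mb outside 7p had a median past 0.3 in either direction in clone 1, against 12 in clone 2 and 8 in clone 3. In 9 windows all 3 clones were below -0.3. They comprised 7 of the 12 windows on 7p and the 2 on 17q that overlap these stretches, and no window was above 0.3 in all 3. Clone 3 alone had a 5 Mb window of 7q at -0.55. DNA copy number was not measured in these tables.

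Shared falls outside 7p were ranked by the smallest change of the 3 clones, and several of the largest left a gene nearly silent. SLC38A1 (chromosome 12, 46183063 to 46270017), a neutral amino acid transporter that takes up glutamine, had 55.3, 43.0, 60.3 and 42.5 CPM in WT. The loss libraries held 0 to 1.65 CPM with a median of 0.417, and the fitted change was -6.47 (SE 0.624, adjusted p = 0.00073). ZIC5, a zinc-finger factor of neural crest development, had 60 to 84 counts in each WT library and 0 to 2 in each loss library. Over all libraries 5 counts faced 272, a level of 1.2% of WT (exact 95% interval 0.388% to 2.85%, counting error only). ATP10A, a lipid flippase named after its values were seen, had 32 to 59 counts in each WT library and 0 in every loss library, so its level was at least 15.2-fold lower taking 3 counts per library as the limit. In each of these genes no loss library approached WT.

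**Figure D4:**
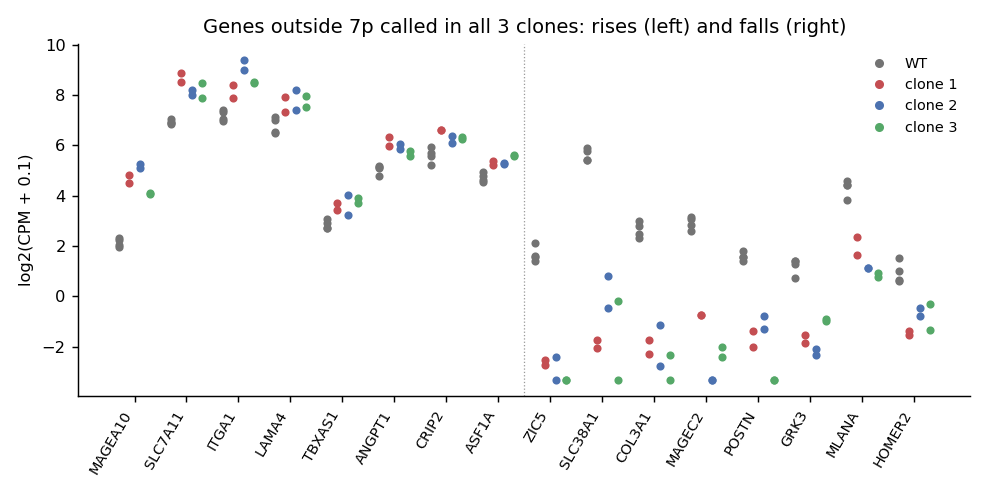
Level as log2(CPM + 0.1) (y axis) in each library of the 8 largest rises and 8 largest falls outside 7p shared by all 3 clones, ranked by the smallest change of the 3 clones (x axis); grey points are WT and coloured points are clones. Groups do not overlap in any of the 16 genes, and SLC38A1 drops from 42.5 or more CPM to at most 1.65.

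The 8 shared falls also held matrix, lineage and cancer-testis genes. COL3A1, a fibrillar collagen, had 5.54, 4.96, 6.91 and 7.92 CPM in WT and 0 to 0.357 CPM in the loss clones (log2 fold change -5.50, SE 0.516, adjusted p = 0.000669). POSTN, the matrix protein periostin, went from 2.57 to 3.37 CPM to between 0 and 0.489 CPM (-3.78, SE 0.631, adjusted p = 0.0186). Its call was lost without any 1 WT library (adjusted p 0.0628 to 0.0738). GRK3, a kinase of G-protein-coupled receptors, fell by 3.15 (SE 0.373, adjusted p = 0.00215), and HOMER2, a scaffold protein, fell by 2.09 (SE 0.349, adjusted p = 0.0186), a call lost without WT replicate 2 or 3 (0.0802 and 0.0665). COL1A1, which was not among the 8, was called lower in each clone at -1.95, -1.65 and -4.32, and the 6-library fit gave -2.25 (adjusted p = 0.116 by edgeR, 0.0242 by DESeq2). Because COL3A1 and COL1A1 are in the fibroblast marker list, the other markers stand beside them. LUM was not called in clones 1 and 2 (-0.033 and 0.44) and was lower in clone 3 (-1.68, adjusted p = 0.000863). DCN was not called in any clone, and PDGFRB was too low to test. The summed level of the 5 markers was 43.5 to 53.5 CPM in WT and 8.14 to 39.1 CPM in the loss libraries. The part of any other cell type in these results was not tested.

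Among the shared rises, SLC7A11 (chromosome 4, 138164097 to 138242349), the cystine-glutamate exchanger that feeds glutathione synthesis, had 117, 134, 120 and 124 CPM in WT and 237, 327 and 465 CPM (lowest, median, highest) in the loss clones. It rose by 1.42 (SE 0.177, adjusted p = 0.00309) with no overlap, at 1.76, 1.17 and 1.27 in clones 1 to 3. ITGA1, the collagen-binding integrin alpha 1, ranged from 126 to 172 CPM in WT and 236 to 674 CPM in the loss clones (1.49, SE 0.261, adjusted p = 0.0248), most in clone 2. ANGPT1, a ligand of the endothelial TIE2 receptor, rose from 27.7 to 36.2 CPM to 47.4 to 81.5 CPM (0.90, SE 0.145, adjusted p = 0.0152). ASF1A, a histone chaperone, rose from 23.1 to 30.6 CPM to 37.1 to 48.6 CPM (0.67, SE 0.113, adjusted p = 0.0191), and CRIP2, a LIM-domain protein, by 0.76 (SE 0.146, adjusted p = 0.0375). Calls of ITGA1, ANGPT1, CRIP2 and ASF1A were each lost in 4 to 10 of 13 fits that left out a library or a clone, WT replicates 2 and 4 among them in all 4 genes (highest adjusted p 0.118, 0.0697, 0.15 and 0.0889). LAMA4, a laminin chain, and TBXAS1, thromboxane synthase, were called in each clone but missed edgeR's threshold in the 6-library fit (0.96, adjusted p = 0.0616, and 0.84, adjusted p = 0.0516). DESeq2 called both. SLC7A11, ITGA1, LAMA4, ASF1A and TBXAS1 overlap other annotated genes, so part of their reads may belong to those.

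MAGEA10 and MAGEC2 moved in opposite directions. MAGEA10 stood at 3.85 to 4.88 CPM in WT and 16.7 to 38.0 CPM in the loss clones (2.59, SE 0.268, adjusted p = 0.00092). MAGEC2 had 8.84, 8.31, 5.93 and 7.07 CPM in WT, at most 0.496 CPM in clone 1, 0 in clone 2 and 0.145 and 0.0894 CPM in clone 3 (-5.13, SE 0.676, adjusted p = 0.00443). MAGEA4 was called lower in each clone, at -8.07, -1.56 and -5.06. Its libraries spread from 0 to 5.58 CPM against 9.83 to 14.3 in WT, and the 6-library fit did not call it (-3.02, SE 0.979, adjusted p = 0.226). Of 19 tested genes of the list, 1 rose and 1 fell in that fit, beside 0.105% and 0.804% of all tested genes, with a median of 0.058. DESeq2 called 3, adding MAGEA11 (1.93, edgeR adjusted p = 0.179), and 6 were at an unadjusted p below 0.05. Clone 1 had 8 of the 19 lower and 2 higher, clone 2 had 3 lower and 5 higher, and clone 3 had 2 lower and 5 higher. In the same order of clones 37.9%, 5.24% and 6.14% of all tested genes were called. MAGEC1 and MAGEA1 show the split: MAGEC1 had 0.297 and 0.319 CPM in clone 1, 98.4 to 119 CPM in clones 2 and 3 and 59.4 to 83.0 CPM in WT, and MAGEA1 had 2.67 and 4.19 CPM, 87.5 to 95.4 CPM and 55.3 to 64.5 CPM in the same order. Members of this family are near copies of one another, and reads may have been divided between them.

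The label melanoma was checked against 10 melanocyte lineage markers, all of which were tested. SOX10 had 468 to 655 CPM in WT and 582 to 694 CPM in the loss clones, and MITF 137 to 210 and 97.8 to 186 CPM, so the lineage factors were present and not called in any clone. The list median was -0.64, at -0.28, -1.55 and -1.63 in clones 1 to 3. Of the 10 markers 3, 5 and 4 were called lower in clones 1 to 3, beside 19.6%, 3.35% and 3.92% of all tested genes. In the same order 2, 0 and 0 were called higher, beside 18.3%, 1.89% and 2.21%. MLANA (chromosome 9, 5890802 to 5910606), a melanosome antigen, was the single marker called by edgeR in the 6-library fit, beside 0.804% of all tested genes called lower. Its levels were 23.8, 21.4, 13.95 and 21.5 CPM in WT and 1.60, 2.10 and 5 CPM in the loss clones (-2.94, SE 0.309, adjusted p = 0.00092), without overlap. MLANA overlaps KIAA2026 in the annotation. DESeq2 also called SLC45A2, a melanosomal transporter (-2.62, edgeR adjusted p = 0.0912). TYR, the key enzyme of melanin synthesis, was split between clones. It had 97.0 to 157 CPM in WT, 586 and 1054 CPM in clone 1, 1.07 and 4.94 in clone 2 and 0.0970 and 1.07 in clone 3. TYRP1 was split in the same way, with log2 fold changes of 3.89, -1.34 and -4.14. PMEL, a fibril protein of the melanosome, had 188 to 980 CPM in the loss clones and 781 to 1719 in WT and was not called (-1.54, SE 0.482, adjusted p = 0.214).

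Clone 1 also had some genes of the dedifferentiated state at higher levels and some at lower levels. Of 13 such genes it had 7 called higher and 2 lower, against 1 and 1 in clone 2 and 1 and 2 in clone 3; 0 were called in the 6-library fit by edgeR or by DESeq2 (3 at an unadjusted p below 0.05), and 8 differed among clones. Of all tested genes 18.3% were called higher and 19.6% lower in clone 1, and 34.6% differed among clones. SOX9, a neural crest factor, had 143 and 94.4 CPM in clone 1, 0.714 and 0.586 in clone 2, 0 in both libraries of clone 3 and 3.41 to 9.88 in WT. NGFR, the low-affinity nerve growth factor receptor, stood at 525 and 172 CPM in clone 1 and 5.68 to 51.3 CPM in clones 2 and 3, with WT at 24.1 to 73.5. CCND1, the G1 cyclin, belongs to the list of MAPK output genes described below and is not among these 13. It had 1331 and 857 CPM in clone 1, 328 and 217 in clone 2 and 151 and 66.7 in clone 3, with WT at 269 to 461. SOX9, NGFR and CCND1 were chosen after their values were seen. Medians of the 13 dedifferentiated genes were 0.65, 0.20 and -0.078 in clones 1 to 3. In clone 1 both this list and the melanocyte list held genes called in each direction. Of the melanocyte markers, TYR and TYRP1 were called higher there and MLANA, GPR143 and SLC45A2 lower.

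**Figure D5:**
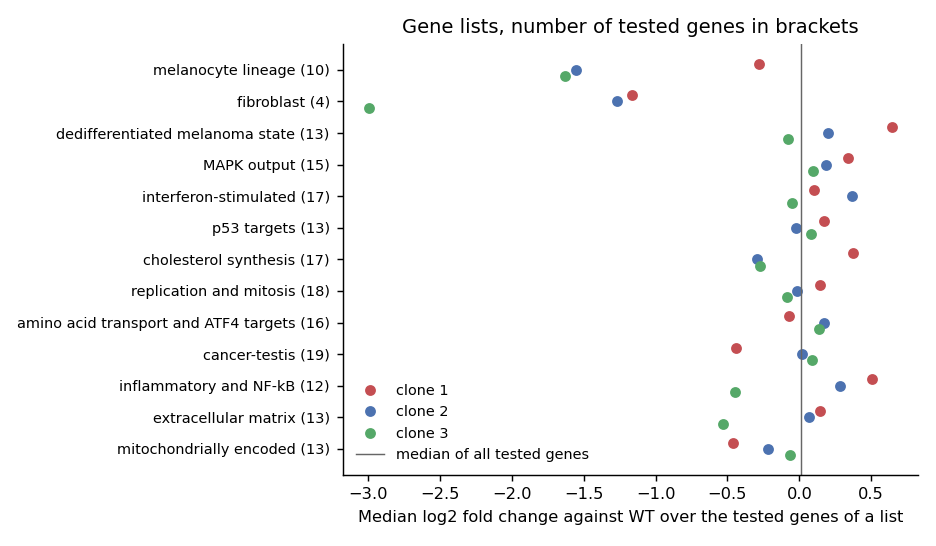
Median log2 fold change against WT (x axis) over the tested genes of each list (y axis, number of genes in brackets), by clone; the line is the median of all tested genes, 0.015. In clones 2 and 3 the melanocyte lineage and fibroblast lists lie lowest, and clones differ in sign for cholesterol synthesis and inflammatory lists.

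Few genes of the growth and stress programs were called in the 6-library fit. As 0.908% of all tested genes were called there, 0 calls in lists of this size lie near the share of all genes. Among 15 output genes of the MAPK pathway, the mitogenic cascade most melanomas depend on, 0 were called in the 6-library fit by edgeR or by DESeq2 (6 at an unadjusted p below 0.05, all higher, where 7.15% of all tested genes were higher at that level) and the median was 0.25. Clone 1 had 7 of them higher and 1 lower, where 18.3% and 19.6% of all tested genes were, and clones 2 and 3 had 1 and 2 higher and 0 and 1 lower. Of 13 p53 target genes 0 were called by either tool (1 at an unadjusted p below 0.05), with a median of 0.12, and in clone 1 alone 5 were higher and 2 lower. CDKN1A, the cell-cycle inhibitor p21, ranged from 10.7 to 28.0 CPM in WT and 14.8 to 31.1 CPM in the loss clones (0.44, SE 0.279, adjusted p = 0.537), and was called higher in clone 1 (0.81, adjusted p = 0.0394). MDM2, the p53 ubiquitin ligase, ranged from 65.1 to 73.8 and 67.5 to 85.1 CPM (0.14, SE 0.0818, adjusted p = 0.5). None of 18 genes of replication and mitosis, 17 of the interferon response, 12 inflammatory genes (11 of them outside 7p), 13 of the matrix or 13 encoded by mitochondria was called in that fit by edgeR. At an unadjusted p below 0.05 there were 1, 1, 2, 3 and 1 in that order, and DESeq2 called 0, 0, 0, 3 and 1. By clone, 6 of the 12 inflammatory genes were higher and 1 lower in clone 1, 1 was higher in clone 2 and 2 were lower in clone 3. Interferon genes were higher in 1 case and lower in 3 in clone 1, higher in 4 in clone 2 (1.89% of all tested genes) and not called in clone 3. Replication genes had 5 higher and 1 lower and matrix genes 3 higher and 3 lower in clone 1, and 1 matrix gene was lower in clone 3. Among clones 8 inflammatory, 9 interferon, 5 replication and 7 matrix genes differed. Cholesterol synthesis separated the clones: of 17 genes, clone 1 had 11 higher and 2 lower, clone 2 had 1 and 3, clone 3 had 0 and 1, and 14 differed among clones. Of all tested genes, 18.3% were higher and 19.6% lower in clone 1, and 34.6% differed among clones. In the 6-library fit 0 of them were called by edgeR or by DESeq2 (2 at an unadjusted p below 0.05). Of 16 amino acid transport and ATF4 target genes, SLC7A11 and SLC38A1 were called, beside 0.908% of all tested genes, and the list median was 0.064. Haematopoietic markers (0 of 5 tested) summed to at most 0.391 CPM, endothelial ones to at most 6.78 CPM, and the 2 tested keratin genes were lower in clone 1 alone, at -1.21 and -1.11.

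Comparison with the 4 8q-loss libraries, which were also derived from single cells of A2058, does not use the WT libraries. It gave 513 calls among 15308 genes (3.35%; 1.45% higher in the 7p-loss clones, 1.9% lower). On 7p 86 of 249 genes were lower and 0 higher, and on 8q, the arm whose extra copy the other clones lack, 112 of 342 were higher and 1 lower. The median of the 7p genes was -0.50 and that of the 8q genes 0.53. Leaving out 8q-loss clone 2 replicate 2 gave 174 genes, leaving out 8q-loss clone 1 replicate 2 or clone 2 replicate 1 gave 216 and 281, and leaving out 7p-loss clone 2 replicate 2 or clone 3 replicate 1 gave 316 and 309. RAC1 (-0.58, adjusted p = 0.00187), PPIA (-0.76, adjusted p = 0.000704) and CCT6A (-0.59, adjusted p = 0.00153) were again called lower.

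Several genes called against WT were not called against the 8q-loss clones. On a scale set over all 18 A2058 libraries, MLANA had means of 2.45 and 2.00 CPM in the 2 8q-loss clones and 1.49 and 1.39 in the 2 1q-loss clones, all below every WT library, and the direct comparison gave 0.23 (adjusted p = 0.763). MAGEC2 was at 0 and 0.284 CPM in the 8q-loss clones and 0.0716 and 0.0378 in the 1q-loss clones, and COL3A1 at 0.18 and 0.259 and at 2.91 and 0.96 CPM, all below every WT library. GRK3 was at 0.431 and 0.524 CPM and POSTN at 0.266 and 1.23 CPM in the 8q-loss clones, also below every WT library. In the 1q-loss clones GRK3 was at 1.47 and 5.88 CPM and POSTN at 4.93 and 1.17 CPM. ZIC5 was at 0.18 CPM in 8q-loss clone 1 and 0.792 and 0.519 CPM in the 1q-loss clones, but at 14.2 CPM in 8q-loss clone 2. These 5 genes did not pass the filter on low counts in the comparison with 8q-loss. MAGEA10 (0.57, adjusted p = 0.616), ITGA1 (0.10, adjusted p = 0.9) and ANGPT1 (1.66, adjusted p = 0.176) were not called either. ITGA1 means were 531 and 242 CPM in the 8q-loss clones and 694 and 1042 CPM in the 1q-loss clones (WT 126 to 171). MAGEA10 means were 30.2, 5.102, 15.98 and 52.2 CPM in the same order (WT 3.83 to 4.91). All these means exceeded every WT library, but the lowest 8q-loss library held 3.903 CPM of MAGEA10. ANGPT1 stood at 67.9 and 62.7 CPM in the 1q-loss clones and at 35.2 and 3.79 CPM in the 8q-loss clones (WT 27.8 to 36.01). SLC7A11 (1.42, adjusted p = 0.016), ASF1A (1.22, adjusted p = 0.000704), CRIP2 (0.82, adjusted p = 0.0222) and HOMER2 (-1.70, adjusted p = 0.0232) were called in both comparisons, which share the 7p-loss libraries. SLC7A11 stood at 318 and 246 CPM in the 1q-loss clones, above every WT library (117 to 133 CPM on that scale), and at 157 and 90.2 CPM in the 8q-loss clones. In the 1q-loss clones CRIP2 stood at 77.3 and 61.1 CPM and ASF1A at 24.7 and 19.4 CPM, with WT at 37.6 to 61.7 and 23.2 to 30.6 CPM. HOMER2 was at 4.08 and 3.47 CPM there and at 1.42 to 2.77 CPM in WT. SLC38A1 was called too (-6.82, adjusted p = 0.0421), but the 8q-loss clones stood at 0.218 and 127 CPM, so that clone 1 of that group was as low as the 7p-loss clones. Its means in the 1q-loss clones were 108 and 182 CPM.

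The stretches of 17q were also low in 1 clone made against another arm. Against the WT mean, the first stretch stood at -1.38 in 1q-loss clone 1, -0.19 in 1q-loss clone 2, and 0.33 and 0.25 in 8q-loss clones 1 and 2. The second stood at -1.08, -0.041, 0.26 and 0.18. All these values share the WT libraries. The 7p genes stood at -0.051 and -0.037 in the 1q-loss clones and 0.052 and 0.030 in the 8q-loss clones, each closer to WT than any 7p-loss clone (-0.44, -0.53 and -0.53 on that scale).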

How the data were processed

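RNA-seq of A2058 was taken as deposited: a table of read counts per gene for each library. Per the submitters' processing notes, the authors aligned reads with HISAT2 2.0.5 to hg38 and counted them with featureCounts 1.5.0-p3; these deposited counts are not normalized, and the strand setting is not given in the sources used here. Groups follow the labels.

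Counts were tested with edgeR 4.0.16 (R 4.3.3): genes were kept by filterByExpr (at least 10 counts at the median library size, 15 in all), scaled by TMM, fitted by quasi-likelihood and adjusted by Benjamini-Hochberg over all 15305 genes, with a threshold of 0.05. All 6 loss libraries were fitted against the 4 WT libraries, then each clone as its own level; the first fit counts libraries of a clone as replicates. The 7p shift is the median log2 difference from the WT mean, relative to the other autosomal arms, with an exact permutation test (scipy 1.17.1). Every adjusted p in the text is from edgeR unless another test is named. On simulated counts for 15079 genes modelled on 7p-loss against WT, 200 of 200 genes changed by about 1 log2 unit were recovered, with 11 false calls. The simulated libraries were independent, with the same spread set for every gene and no variation between clones. Only genes of higher CPM were changed, so recovery and false calls in the real libraries were not measured.

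Named genes are 8 fixed genes, the 8 largest rises and 8 largest falls outside 7p shared by the 3 clones (protein-coding, mean of at least 1 CPM, ranked by the smallest absolute log2 fold change of the 3), the 4 most abundant called 7p genes, the 3 lowest and 3 highest 7p genes (mean of at least 5 CPM), the 7p subunit of each complex (another complex is not reported here) and called members of the lists; others were chosen after their values were seen. Members, lists and tests were chosen with earlier results of these data known. Libraries within a clone or WT differed by more than sampling noise (chi-square per degree of freedom 6.94 to 34.3), so none was merged. Promoter windows were found for MAGEC2, MAGEA4 and PIGW. SLC7A11, COL3A1, COL1A1 and MAGEA10 are named only. Alternatives were other scaling, filters, DESeq2 1.42.0, summed clones, subsets of WT, a replicate block and each library or clone left out.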

Additional observations from a re-analysis of the deposited data

Results flagged for a closer look

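Of 94 groups of libraries tested for 1 value far from the rest, 2 stood out, and chance alone gives about 1 in 20. PSMA2 was lowest in clone 1 replicate 2 of the loss libraries, at 2.70 CPM, with a gap of 0.676 of the range of its group to the next library. AIMP2 was lowest in WT replicate 3, at 54.7 CPM, with a gap of 0.858 of the WT range. Both are 7p subunits of complexes.

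Of the 46 named genes, 14 differed among the 3 clones by edgeR's test over clones with Benjamini-Hochberg adjustment, beside 34.6% of all tested genes. On 7p these were ETV1 (adjusted p = 0.000461), HDAC9 (0.000708) and CDCA7L (0.00294), each highest in clone 1, NDUFA4 (0.00465) and CYCS (0.0254), each nearest to WT in clone 1, and TBRG4 (0.000752), lowest in clone 1. HOXA4 (0.0185) was highest in clone 2, and ZNF853 (0.0463) was lowest in clone 2. Outside 7p they were MAGEA10 (0.000753) and ITGA1 (0.00394), highest in clone 2, SLC7A11 (0.036), highest in clone 1, MAGEC2 (0.00117), at 0 in clone 2, POSTN (0.00391), at 0 in clone 3, and MLANA (0.0178), which fell by 2.31 in clone 1, 3.26 in clone 2 and 3.57 in clone 3 on the log2 scale.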

How the results depend on the processing

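With all 6 loss libraries against WT, 139 genes were called (11.5% of them higher). DESeq2 called 448 (39.5% higher), the mean of the clones in the fit by clone 1907 (36.1% higher), summed clones 55, WT replicates 1 and 2 alone 16 and WT replicates 3 and 4 alone 47. Leaving out a library or clone gave 71 to 898, the highest without clone 1. Clone 1 gave 3391 to 5712 calls with a library left out, clone 2 222 to 898 and clone 3 416 to 965. Without a filter clones 2 and 3 gave 1840 and 1839. With WT replicates 1 and 2 they gave 435 and 557, and with WT replicates 3 and 4 clone 2 gave 371. Genes shared by the clones numbered 350 without a filter, 97 with WT replicates 1 and 2, 123 without chromosome 17 (an alternative chosen after seeing the data) and 85 to 414 with a library or clone left out. Genes that differed among clones numbered 275 (without clone 1) to 5573 with a library or clone left out, 6373 without a filter and 6704 with the replicate block. Against 8q-loss, DESeq2 called 1191 and fits without a library 174 to 495. The 7p shift was -0.49 with WT replicates 1 and 2 and -0.51 with WT replicates 3 and 4, both with an exact permutation p of 0.0714, the smallest these numbers allow, and -0.32 without a filter. With a library or clone left out, ETV1 ranged from -0.12 to 0.32 and HDAC9 from -0.19 to 0.83, both lowest without clone 1. The cause was not tested for any of these.

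The labels do not say that replicate numbers pair libraries. Deviations of replicate 1 and 2 correlated at 0.329 to 0.421 across genes between clones and at -0.077 to -0.010 between clones and WT. With the replicate block on WT replicates 1 and 2, 1 gene was called (0 on 7p), against 16 (7 on 7p) for the same libraries without it, and 155 were shared by the clones. With the replicate block 642 genes were called against 8q-loss.

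Of 32 called named genes, 19 kept their call in all 13 fits with a library or clone left out and 0 changed sign in any of 23 alternatives; 17 lost it with summed clones, 25 with WT replicates 1 and 2 only, 19 with WT replicates 3 and 4 only and all 32 with the replicate block on WT replicates 1 and 2. Totals of 19595543 to 28622197 counts limit genes near 0, where fitted fold changes depend on the prior count.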

Other observations

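Within each 7p-loss clone, replicate 2 held more RNA of several pigment genes than replicate 1. PMEL was 5.19, 3.17 and 2.70 times higher in clones 1 to 3, and DCT, an enzyme of melanin synthesis, 6.22, 4.04 and 3.14 times. GPNMB was 1.63, 2.30 and 1.81 times higher, and TYR 1.81, 4.64 and 11 times, the last from 0.0966 CPM. Between WT replicates 1 and 2 these ratios were 0.640, 0.952, 0.922 and 1.46. In the 8q-loss clones the ratio for PMEL was 2.04 and 2.01, and in the 1q-loss clones it was 1.10 and 0.908. In the 7p-loss clones the ratio for SOX10 was 0.963, 0.935 and 1.06, and that for MITF was 1.16, 1.23 and 1.40. The genes were chosen after their values were seen, and what the replicate numbers stand for is not given in the labels.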
